A study of Canis lupus familiaris with 33 samples.

Results

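SHH, PTCH1, SMO, GLI1, GLI3, HHIP, BMP2, BMP4 and BMP5 carry the Hedgehog and BMP signals between the urothelium and the stroma of the bladder. They were chosen by symbol, and all 9 were found among the 25096 genes analysed. They were measured in 29 canine invasive urothelial carcinomas (iUC) and 4 normal bladder mucosa samples. The tumors were high-grade lesions biopsied at cystoscopy before any treatment, each from a different animal, with no restriction on breed, age or sex. The paper reports that the cells of every included tumor were nearly all epithelial. Normal mucosa was dissected from the bladders of dogs euthanized for reasons unrelated to the bladder, and its labels call it normal urothelial cells. RNA was sequenced after removal of ribosomal RNA, all samples in 1 batch. Each value is a TMM-normalized value on the log2 scale, from which the gene's own median across the 33 samples was subtracted. Values therefore compare samples for a gene, and not genes with each other. No genomic coordinates are given because the annotation at hand was of another assembly than CanFam3.1.

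In the bladder, urothelial cells secrete the ligand SHH, and the fibroblasts below them respond. SHH binds the receptor PTCH1, which releases SMO, and SMO switches the GLI transcription factors to their activating forms. GLI1, PTCH1 and HHIP are themselves transcribed in responding cells, so their RNA is widely read as a measure of the response. Stromal cells in turn secrete BMP ligands, which act back on the urothelium and favour its differentiation. In bladder cancer this exchange between both layers has been studied as a restraint on tumor growth.

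Between tumors and normals, 4 members were called different. SHH rose 2.39-fold, while GLI1 fell 7.04-fold, BMP5 fell 4.90-fold and GLI3 fell 2.68-fold, each past an adjusted p of 0.05 with limma and Benjamini-Hochberg adjustment and a change of at least 2-fold. Thus 1 member was called higher, 3 were called lower and 5 were not called. Among all 24471 genes tested, 10.7% were called higher and 45.8% lower. Under DESeq normalization, by which the table was also deposited, these shares were 5.62% and 49.1%. Among the 14638 genes that, like all 9 members, have no lowest value shared by several samples, these shares were 17.6% and 18.6%. The members, at 33.3% lower and 11.1% higher, lay between both backgrounds for lower calls, and this share was not tested. The median change of the members was -0.62 on the log2 scale, beside -0.84 over all genes tested and 0.31 over genes without a shared lowest value. What follows is therefore about single genes and their ratios.

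The normal samples stood apart in cell type markers and in background. All 9 smooth muscle markers tested were lower in tumors, with a median change of -5.97, and the mean of that list lay between 4.51 and 6.49 in normals and between -1.23 and 3.41 in tumors. Of 10 fibroblast markers, 8 were lower and 1 was higher (PDGFRA), and the list mean was 1.87 to 2.51 in normals and -2.02 to 2.05 in tumors. All 3 nerve and Schwann cell markers were lower, none of 5 endothelial markers was called by limma or reached an unadjusted p of 0.05, and of 7 immune markers 1 was higher and 1 lower. Urothelial markers were present in both groups, with 5 of 10 higher in tumors and 1 (KRT20) lower. With DESeq normalization 3 of the 10 urothelial markers were higher, as also without normal D, and 1 endothelial and 2 immune markers were lower. The 1 lower immune call was lost when any 1 normal was left out. Normals also had only 755 to 1019 genes at their lowest value, against 3699 to 8175 in tumors, and 99.7% to 100% of olfactory receptor genes lay above the lowest value in normals, against a median of 21.4% in tumors (range 7.22% to 91.4%). Olfactory receptor genes serve smell in the nasal epithelium. Their median change was -5.36, and its part in the differences between tumors and normals below was not tested. In bulk tissue, fewer cells of a type and less RNA per cell cannot be told apart.

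**Figure D1:**
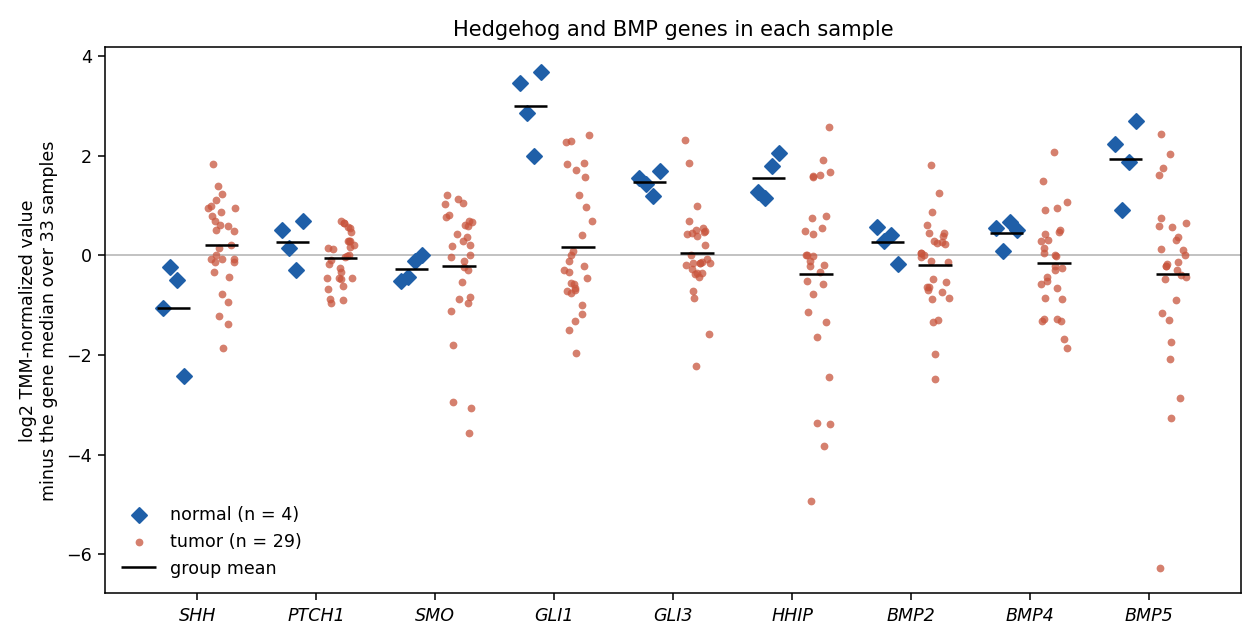
Log2 TMM-normalized values of the 9 members, each centred on its median over 33 samples, in 4 normals (diamonds) and 29 tumors (circles), with group means as bars. SHH lay higher in most tumors, and GLI1 and BMP5 exceeded the normal range in no tumor.

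SHH, the ligand, was -1.06, -0.23, -0.49 and -2.43 in normals A to D. The tumors ran from -1.86 through a median of 0.20 to 1.84. Of 29 tumors, 22 lay above every normal, and the other 7 lay within the normal range. The difference was 1.26 (SE 0.46, adjusted p = 0.0156, limma; exact permutation p = 0.0208, two-sided). The call was not firm: in the DESeq-normalized table the difference was 0.96 with an adjusted p of 0.0635, and without normal D it was 0.80 with an adjusted p of 0.165. Normal D had the lowest SHH of all 33 samples, and also the lowest mean of the luminal urothelium list among normals, at -1.51. Relative to the mean of the 10 urothelial markers within each sample, SHH differed by 0.76 between the groups, which did not pass the test (exact permutation p = 0.0784, adjusted p = 0.0906 over 37 ratios).

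PTCH1, the SHH receptor and a Hedgehog target, was 0.51, 0.14, -0.30 and 0.69 in normals. Tumors ran from -0.96 through -0.02 to 0.70. The groups overlapped, with 18 tumors inside the normal range, 10 below it and 1 above it. The difference was -0.32 (SE 0.26, adjusted p = 0.274, limma). It was -0.62 in the DESeq-normalized table, where it passed the p threshold (adjusted p = 0.0373) but stayed under 2-fold. Without normal C it was -0.51 and without normal D -0.17, neither past the threshold.

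SMO, the transducer that PTCH1 holds in check, was the member with the smallest difference. Normals were at -0.52, -0.43, -0.12 and 0.00, and tumors ran from -3.57 through 0.18 to 1.21. Of the tumors, 16 lay above every normal and 9 below every normal. The difference of 0.05 (SE 0.62, adjusted p = 0.952, limma) averages over tumors on both sides. In 3 tumors, 19, Da6 and 12, SMO lay between -3.57 and -2.95.

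GLI1, the transcription factor that is both effector and target of the pathway, was 3.45, 2.85, 1.98 and 3.67 in normals. Tumors ran from -1.96 through -0.21 to 2.41. No tumor lay above the normal range, 3 lay within it and 26 lay below it. GLI1 fell by 2.82 (SE 0.63, adjusted p = 0.000172, limma; exact permutation p = 0.000196), the largest change among the members.

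GLI3, which acts mainly as a repressor when no ligand is present, was 1.55, 1.42, 1.18 and 1.69 in normals. The tumors ran from -2.23 through -0.14 to 2.31. It was below every normal in 27 tumors, and above every normal in the other 2, tumors Po and Sp. GLI3 fell by 1.42 (SE 0.43, adjusted p = 0.00406, limma; exact permutation p = 0.00367).

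HHIP, a membrane protein that captures the ligand and is induced by the pathway, was 1.26, 1.14, 1.78 and 2.04 in normals. In tumors it spread widely, from -4.94 through -0.12 to 2.57. It was below every normal in 23 tumors, within the range in 5 and above it in 1. The difference of -1.93 (SE 0.90) missed the threshold, with an adjusted p of 0.0533 in limma. It passed in the DESeq-normalized table (-2.23, adjusted p = 0.0276) and when each group was given its own spread (adjusted p = 0.00584), and the exact permutation p was 0.0158.

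Of the 3 BMP ligands among the members, BMP5 alone was called. BMP2 was 0.58, 0.30, 0.40 and -0.18 in normals, and ran from -2.48 through -0.04 to 1.81 in tumors. Its difference of -0.48 (SE 0.45) did not pass limma's test, with an adjusted p of 0.346, and 13 tumors lay within the normal range. BMP4, a stromal BMP, was 0.55, 0.08, 0.67 and 0.52 in normals and ran from -1.85 through -0.21 to 2.07 in tumors. It lay below every normal in 18 tumors and above every normal in 5. The difference was -0.62 (SE 0.47, adjusted p = 0.240, limma).

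BMP5, a ligand of the BMP7 group, was 2.24, 0.91, 1.87 and 2.69 in normals. Tumors ran from -6.28 through -0.17 to 2.43, the widest range of any member. It was below every normal in 25 tumors and within the normal range in 4, with no tumor above it. BMP5 fell by 2.29 (SE 0.86, adjusted p = 0.0176, limma; exact permutation p = 0.00235). Without normal A or normal D the adjusted p was 0.0518 or 0.0698, with differences of -2.19 and -2.04.

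No member had every tumor on 1 side of every normal. Over all genes tested, 28.5% had every tumor below and 7.63% every tumor above every normal, and over genes without a shared lowest value 7.56% and 12.7%. The lowest and highest tumor values of the 9 members came from 11 tumors. Tumor 20 had the lowest SHH, GLI1, GLI3 and BMP4 of all tumors, and the third lowest mean of the fibroblast list. Tumor CH had the highest SHH and the highest BMP2. HHIP and BMP5 were both among their 4 lowest values in tumors JE, Da6 and 9.

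**Figure D2:**
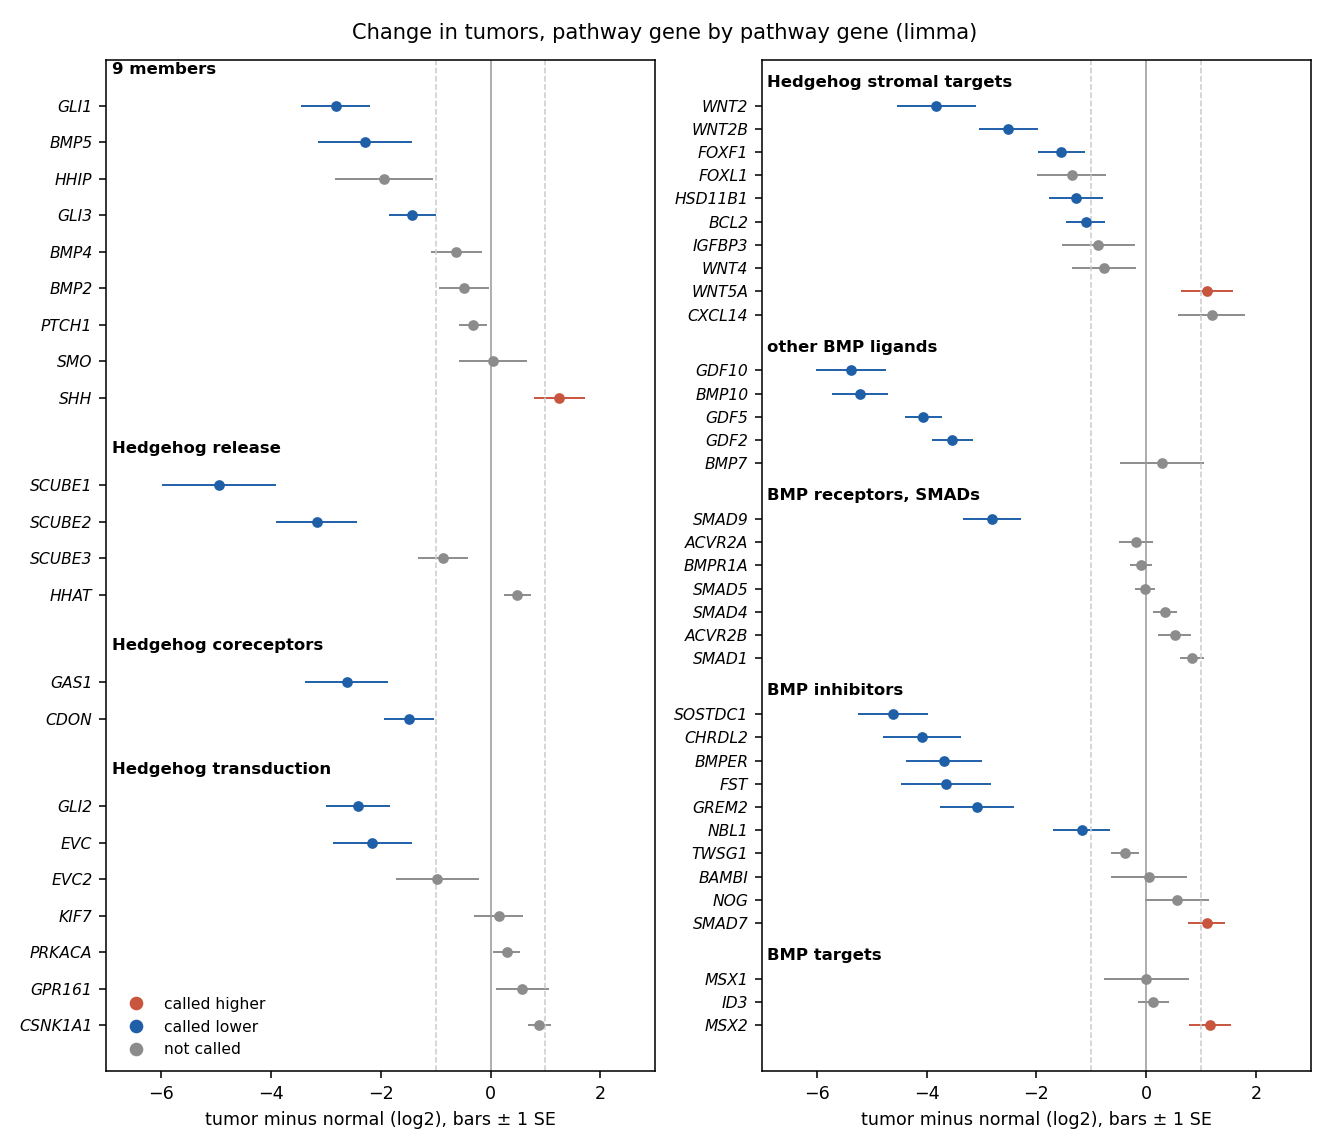
Tumor minus normal difference (log2) with its SE from limma for the 9 members and 48 other genes of the Hedgehog and BMP pathways, grouped by role, with dashed lines at a 2-fold change. Of the 48 other genes, 22 were called lower (blue) and 3 higher (red), and GDF10, BMP10 and SCUBE1 lay farthest to the left.

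The other genes of both pathways were taken from lists by role. Of 48 tested, 22 were called lower, 3 higher and 23 were not called, beside the 45.8% lower and 10.7% higher over all genes. Of the 39 without a shared lowest value, 14 (35.9%) were lower and 3 (7.69%) higher, beside 18.6% and 17.6% over all genes of that kind. Of the 22 lower genes, 8 have a shared lowest value, at which some of the tumors lay. For these a fitted fold depends on that floor.

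Around the ligand and its coreceptors, the calls were all downward. Of 4 genes for release of the ligand, SCUBE1 (-4.94, adjusted p = 8.54e-05) and SCUBE2 (-3.16, adjusted p = 0.000309) fell in limma; their products help lipid-modified SHH leave the cell. HHAT, the acyltransferase of SHH, differed by 0.49 (SE 0.25, adjusted p = 0.0761, limma). Both coreceptors analysed fell, GAS1 (-2.62, SE 0.75), which binds SHH beside PTCH1, and CDON (-1.49, SE 0.46), a cell surface protein that also binds SHH.

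In transduction, 2 of 7 genes fell, GLI2 (-2.40, SE 0.58), the main activator among the GLI proteins, and EVC (-2.15, SE 0.71), a ciliary partner of SMO. All 3 GLI genes were thus called lower. CSNK1A1, a kinase that phosphorylates GLI proteins, differed by 0.89 (SE 0.21, adjusted p = 0.000400, limma), under 2-fold, and GPR161 by 0.58 (SE 0.49, adjusted p = 0.285, limma). Of 10 stromal targets, 5 fell and 1 rose. WNT2 (-3.82, SE 0.72) and WNT2B (-2.51, SE 0.53), both WNT ligands of mesenchyme, fell most, while WNT5A rose by 1.10 (SE 0.47, adjusted p = 0.0375, limma). WNT5A missed the threshold when any 1 normal was left out (adjusted p 0.0626 to 0.0925). HSD11B1, among the 5 that fell (-1.28, adjusted p = 0.0207, limma), missed it without normal A or D (adjusted p 0.0543 and 0.0841). CXCL14 differed by 1.19 (SE 0.61, adjusted p = 0.0810, limma), and by 1.62 without normal D, where it was called higher (adjusted p = 0.0384, limma).

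Among other BMP ligands, 4 of 5 were called lower and BMP7 differed by 0.28 (SE 0.77, adjusted p = 0.750, limma). The 4 were GDF10 (-5.37), BMP10 (-5.21), GDF5 (-4.06) and GDF2 (-3.53). All lay above their lowest value in every normal and at it in 16, 19, 25 and 22 tumors, respectively. BMP10 and GDF2 are known from heart and liver. Olfactory receptor genes, with a median change of -5.36, moved in the same direction, and their part in these 4 calls was not tested.

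Of 7 receptors and SMADs of the BMP pathway, SMAD9 fell by 2.81 (SE 0.53, adjusted p = 1.92e-05, limma) and the other 6 were not called. SMAD1, an effector of BMP receptors, differed by 0.83 (SE 0.22, adjusted p = 0.000980, limma), under 2-fold. ACVR2B was at 0.52 (SE 0.30) and ACVR2A at -0.19 (SE 0.31), neither past the threshold. Of 10 inhibitors, 6 fell and 1 rose. SOSTDC1 (-4.61, SE 0.63) and CHRDL2 (-4.09, SE 0.71), both secreted antagonists of BMP ligands, fell most, whereas SMAD7, an inhibitor inside the cell that is induced by BMP and TGF-beta signals, rose by 1.10 (SE 0.34, adjusted p = 0.00489, limma). Without normal C SMAD7 was just under 2-fold (0.999, adjusted p = 0.0250, limma). NBL1, among the 6 that fell (-1.18, adjusted p = 0.0411, limma), missed the threshold when any 1 normal was left out (adjusted p 0.0617 to 0.124). NOG differed by 0.56 (SE 0.58, adjusted p = 0.386, limma). Of 3 target genes, MSX2 rose by 1.16 (SE 0.38, adjusted p = 0.00805, limma) and ID3 differed by 0.13 (SE 0.29). In the DESeq-normalized table WNT5A, SMAD7 and MSX2 were each under 2-fold, at 0.80, 0.80 and 0.86.

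**Figure D3:**
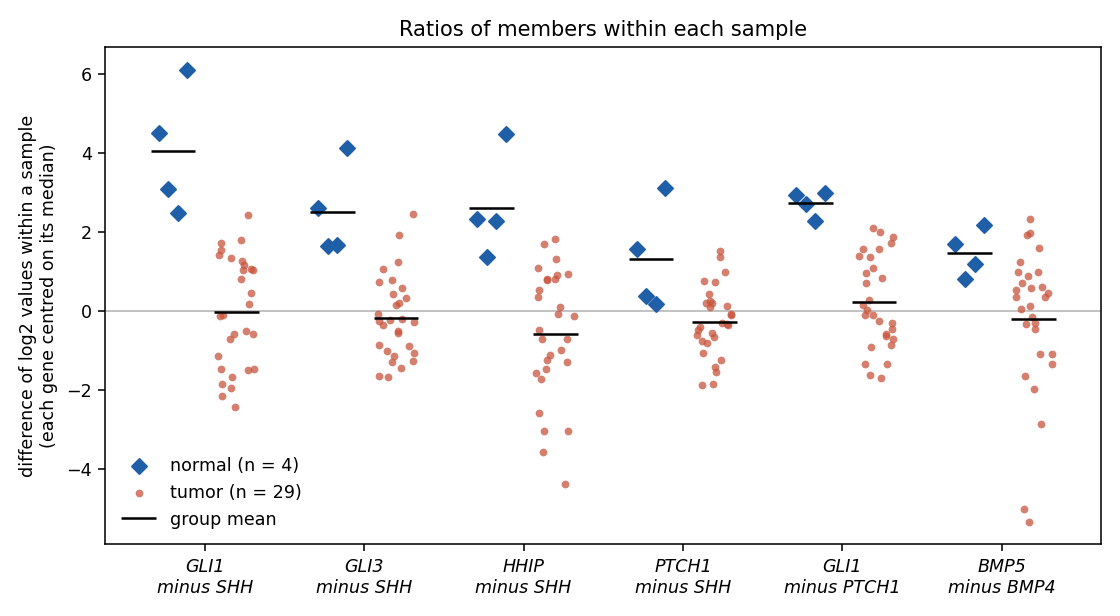
Difference of the log2 values of pairs of members within each sample, a log2 ratio up to a constant, in 4 normals (diamonds) and 29 tumors (circles), with group means as bars. For GLI1 relative to SHH and for GLI1 relative to PTCH1, all tumors lay below all normals.

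A ratio within a sample does not depend on how the samples were scaled. After the values had been seen, 37 such ratios were compared, 10 between 2 members and 27 between a member and the mean of a marker list. GLI1 relative to SHH was 4.51, 3.08, 2.47 and 6.10 in normals and ran from -2.43 through -0.09 to 2.43 in tumors. All 29 tumors lay below all 4 normals. The means were 4.04 ± 1.62 (SD, n = 4) and -0.03 ± 1.40 (SD, n = 29), a difference of -4.07 with an exact permutation p of 4.89e-05, the smallest this design gives, and an adjusted p of 0.000201. Against SHH, 26.3% of all genes tested, and 5.66% of genes without a shared lowest value, also had every tumor below every normal.

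GLI1 also fell relative to its sister target PTCH1. That ratio was 2.94, 2.71, 2.29 and 2.98 in normals and ran from -1.69 through 0.02 to 2.10 in tumors. Again all 29 tumors lay below all 4 normals, with a difference of -2.50 (exact permutation p = 4.89e-05, adjusted p = 0.000201). Against PTCH1, 22.3% of all genes tested and 4.66% of genes without a shared lowest value were separated in this direction. Of these Hedgehog targets only GLI1 was called on its own, and PTCH1 did not pass limma's test.

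HHIP, GLI3 and PTCH1 were also lower relative to SHH. SHH itself differed by 1.26, which lowers every ratio to it, and the shares of all genes at the cut-offs below were not computed. HHIP relative to SHH differed by -3.19 (27 of 29 tumors below every normal, exact permutation p = 0.000147) and GLI3 relative to SHH by -2.68 (27 of 29, exact permutation p = 0.000489). For PTCH1 relative to SHH the difference was -1.57 (20 of 29, exact permutation p = 0.00943, adjusted p = 0.0152), and without normal D it was -0.97 (exact permutation p = 0.0774). BMP5 relative to BMP4 differed by -1.67, with 21 of 29 tumors below every normal (exact permutation p = 0.0242, adjusted p = 0.0345).

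Set against the fibroblast markers of the same sample, the members took another order. GLI1 minus the mean of the 10 fibroblast markers was 1.57, 0.64, -0.01 and 1.17 in normals and ran from -0.77 through 0.29 to 1.54 in tumors. The groups overlapped, and the difference of -0.52 did not pass the test (exact permutation p = 0.112, adjusted p = 0.126). For HHIP it was 0.36 (adjusted p = 0.554) and for BMP5 0.01 (adjusted p = 0.791, both by exact permutation). GLI3 differed by 0.87 (adjusted p = 0.0860, exact permutation). The other 5 members were higher relative to these markers, by 3.55 for SHH (29 of 29 tumors above every normal, adjusted p = 0.000201), 2.34 for SMO (26 of 29, adjusted p = 0.00343), 1.98 for PTCH1 (28 of 29, adjusted p = 0.000362), 1.82 for BMP2 (23 of 29, adjusted p = 0.0159) and 1.68 for BMP4 (27 of 29, adjusted p = 0.00133), all by exact permutation. The fibroblast list itself fell by 2.30, and 38.8% of all genes tested, or 63.5% of those without a shared lowest value, had at least 27 tumors above every normal on this ratio. SHH, PTCH1 and BMP4 thus shared this with most genes of their kind. Relative to the mean of the 10 urothelial markers, 5 members were lower by exact permutation, with differences of -3.32 for GLI1 (adjusted p = 0.000452), -2.79 for BMP5 (adjusted p = 0.00213), -2.43 for HHIP (adjusted p = 0.00758), -1.92 for GLI3 (adjusted p = 0.00203) and -0.98 for BMP2 (adjusted p = 0.0188). BMP4 (-1.12, adjusted p = 0.0579), PTCH1 (-0.82, adjusted p = 0.0501) and SMO (-0.45, adjusted p = 0.554) did not pass. The mean of the urothelial list itself differed by 0.50, and the share of all genes lower relative to it was not computed. For GLI1, HHIP and BMP5 no change relative to fibroblast markers was detected with 4 normals, which does not show that they changed alike. The smooth muscle list fell by 5.54, more than any member, so the 9 ratios to it follow that list and are not read here.

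**Figure D4:**
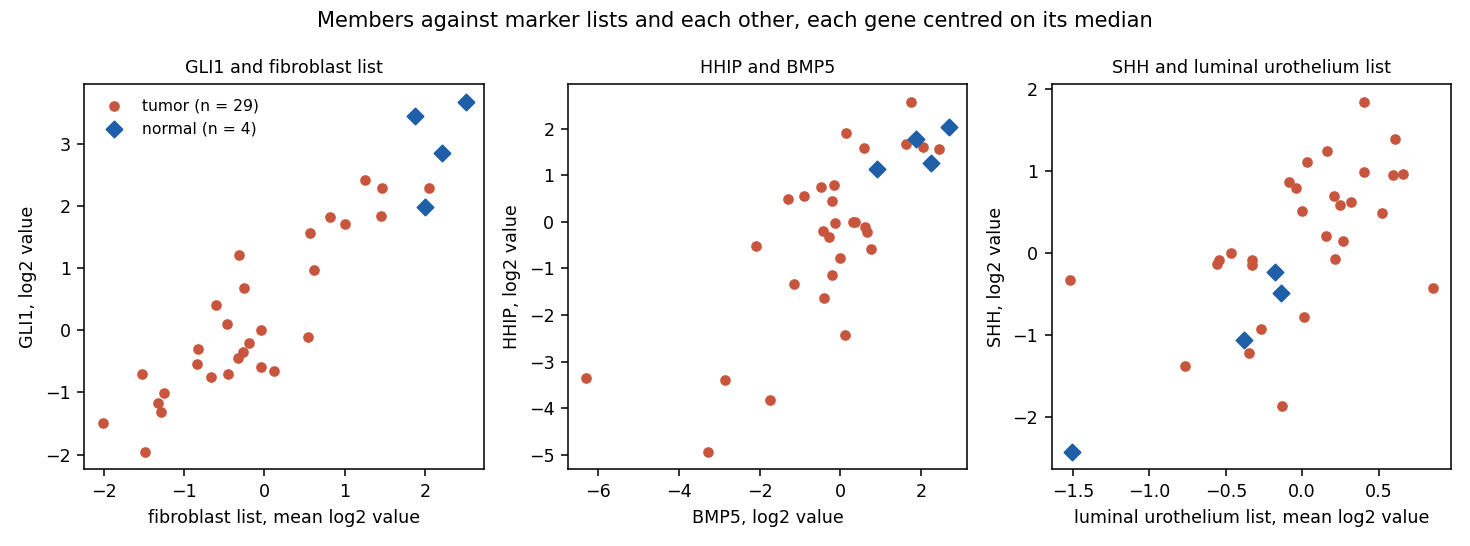
Values in each sample for GLI1 against the mean of 10 fibroblast markers, HHIP against BMP5 and SHH against the mean of 9 luminal urothelium markers (log2, each gene centred on its median), tumors as circles and normals as diamonds. GLI1 rose with the fibroblast list over the tumors, and the normals lay at the upper end of both axes.

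Among tumors alone, the members were set against 5 lists of cell type markers, each scored as a mean z score, and against the olfactory share, the percentage of olfactory receptor genes not at their lowest value. The share of all genes related to each score was not computed. Of 54 relations, 8 passed Benjamini-Hochberg adjustment over all of them, by permutation over 29 tumors. The closest was GLI1 with the fibroblast score, with r = 0.887 and rho = 0.855 (both permutation p = 1e-05, the smallest 100000 permutations give; adjusted p = 0.000270 for each). Without the 2 tumors whose fibroblast score was farthest from its median, r was 0.869. GLI1 also followed the smooth muscle score (r = 0.684, rho = 0.792, both permutation p = 1e-05) and, less closely, the immune score (r = 0.506, permutation p = 0.00495, adjusted p = 0.0334; rho = 0.449, permutation p = 0.0156). The immune relation did not pass with Spearman's rho (adjusted p = 0.0638), or without the 3 tumors with the largest olfactory share (r = 0.499, adjusted p = 0.0642, permutation).

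The remaining 5 relations included 4 with the fibroblast score. BMP4 had r = 0.585 (rho = 0.614, permutation p = 0.00105 and 0.000510), HHIP r = 0.577 (rho = 0.667, permutation p = 0.000940 and 0.000150), GLI3 r = 0.563 (rho = 0.485, permutation p = 0.00129 and 0.00840) and PTCH1 r = 0.520 (rho = 0.561, permutation p = 0.00417 and 0.00181). With Spearman's rho GLI3 missed the correction (adjusted p = 0.0559, permutation). Dropping the same 2 tumors as for GLI1, those of most extreme fibroblast score, gave r of 0.482, 0.477, 0.409 and 0.602, respectively. All 4 missed the correction when the 3 tumors with the largest olfactory share were left out (adjusted p 0.0525 to 0.101, r 0.448 to 0.539). BMP5 had r = 0.436 with the fibroblast score, short of the correction (rho = 0.472, permutation p = 0.0167 and 0.0105, adjusted p = 0.0818 for r).

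The ligand followed another score. SHH rose with the luminal urothelium score over the 29 tumors, with r = 0.559 and rho = 0.672 (permutation p = 0.00193 and 0.000150, adjusted p = 0.0174 and 0.00203). Dropping the 2 tumors of most extreme luminal score left r at 0.545. With the fibroblast score SHH had r = 0.20. No member passed with the basal urothelium score or the olfactory share.

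**Figure D5:**
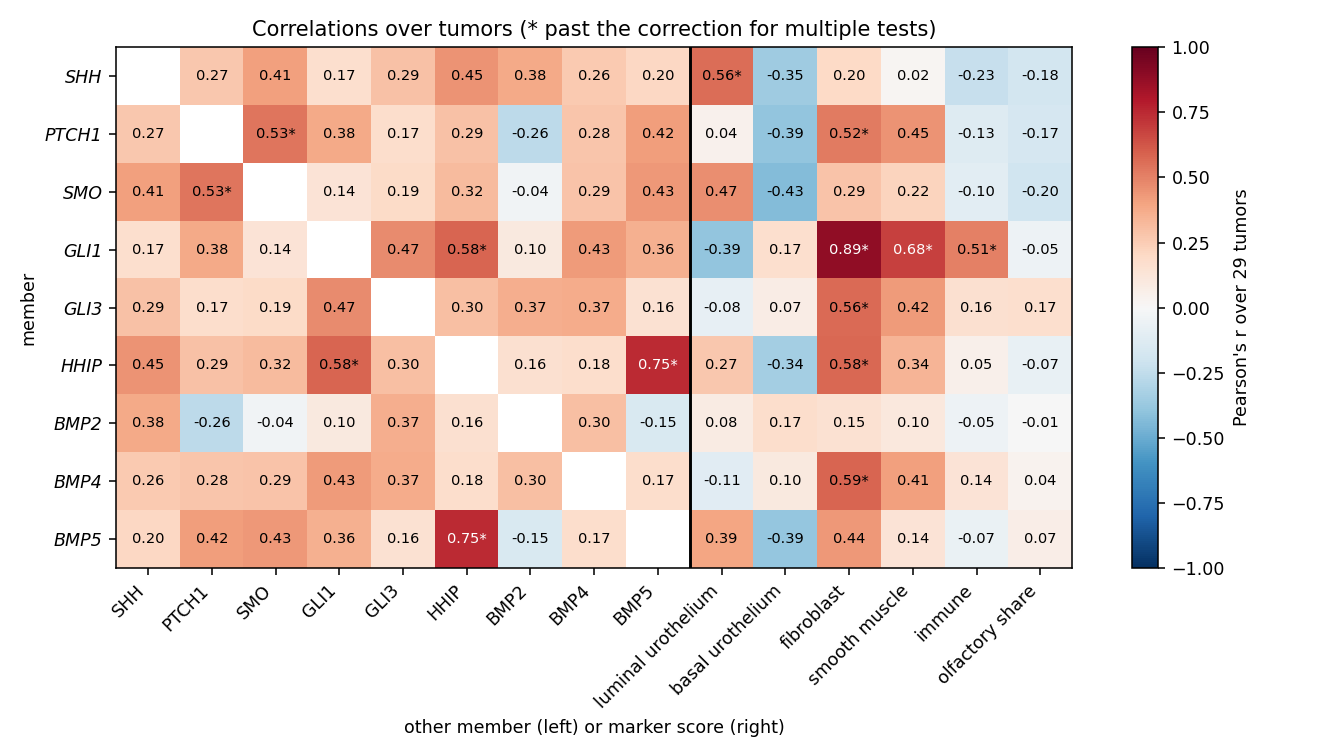
Pearson's r over 29 tumors between the members (left) and between members and 6 marker scores (right), with an asterisk where the adjusted permutation p was at most 0.05. The fibroblast column holds 5 asterisks, and the SHH row holds 1, with the luminal score.

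Between members, 3 of 36 pairs passed the correction over all pairs. HHIP and BMP5 varied most closely, with r = 0.746 and rho = 0.620 (permutation p = 2e-05 and 0.000490, adjusted p = 0.000720 and 0.00882). The r was 0.718 without the 2 tumors farthest in HHIP. Over all tumors it lay at the 99.9th percentile of the r of HHIP with all genes. GLI1 and HHIP had r = 0.584 and rho = 0.636 (permutation p = 0.000780 and 0.000240, adjusted p = 0.0140 and 0.00864), and r = 0.501 without the 2 tumors farthest in GLI1. Over all tumors this r lay at the 97.5th percentile of the r of GLI1 with all genes. PTCH1 and SMO had r = 0.534 and rho = 0.593 (permutation p = 0.00257 and 0.000900, adjusted p = 0.0308 and 0.0108), and r = 0.588 without the 2 tumors farthest in PTCH1. Over all tumors this r lay at the 98.8th percentile of the r of PTCH1 with all genes.

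With the fibroblast score regressed out of both genes, none of the 36 pairs passed, and 5 had an unadjusted permutation p of at most 0.05. HHIP with BMP5 then had r = 0.672 (adjusted p = 0.0691, permutation), PTCH1 with SMO 0.471 and GLI1 with HHIP 0.192. A p that misses the threshold does not show that the pairs were unrelated.

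Between the ligand and its target genes GLI1 and PTCH1 no relation was detected over tumors. SHH and GLI1 had r = 0.167 and rho = 0.053 (permutation p = 0.385 and 0.785, adjusted p = 0.449 and 0.808), and SHH and PTCH1 had r = 0.273 and rho = 0.250 (permutation p = 0.154 and 0.192). SHH and HHIP had r = 0.449 and rho = 0.415 (permutation p = 0.0142 and 0.0257), short of the correction (adjusted p = 0.102 for both). It passed, at r = 0.564 (adjusted p = 0.0484, permutation), without the 3 tumors with the largest olfactory share.

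The genes whose values over the 29 tumors were most like those of each member were taken from 11161 genes with a symbol, as a description, since all share the same libraries. For GLI1 they were MATN2, FXYD1 and OLFML1 (r = 0.919, 0.911 and 0.908), MATN2 encoding an extracellular matrix protein. HHIP was most like DCN (r = 0.863), which encodes the matrix proteoglycan decorin and belongs to the fibroblast list, then GRIA1 (0.831) and ROR2 (0.816), a WNT5A receptor. BMP5 was most like HMGCLL1 (r = 0.929), the protein-coding gene next to it in the RefSeq gene order. COLEC11 (0.884) and HAND2 (0.857), a mesenchymal transcription factor, followed. For BMP4 the genes were DAAM2, COL5A1 and BAMBI (r = 0.732, 0.711 and 0.709), BAMBI being a decoy receptor of the BMP and TGF-beta pathways that BMP signals induce.

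SHH was most like TRIM24, FOXP2 and APPBP2 (r = 0.791, 0.782 and 0.781). TRIM24 lies on the same chromosome as SHH, with 127 protein-coding genes between them. SMO was most like ZNF550, ZSWIM5 and ZNF71 (r = 0.835, 0.834 and 0.801), and PTCH1 like RIT2, ZNF782 and ZNF549 (0.713, 0.711 and 0.704), with ZNF782 on the chromosome of PTCH1 and 9 protein-coding genes away. GLI3 reached only r = 0.685 with BRF2, 0.659 with TRAF6 and 0.658 with ARIH2, and BMP2 r = 0.702 with MFSD11, 0.674 with HOOK3 and 0.653 with PSME3.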

How the data were processed

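The authors aligned paired-end reads to CanFam3.1 with COBWeb in Strand NGS 3.1, normalized gene values by TMM and, separately, by DESeq, and deposited them on the log2 scale, centred on each gene's median across 33 samples. How strand was counted is not given in the sources used here. The incomplete last line of each table was dropped. Total counts are not known. The smallest step, read as 1 read pair, was worth 2.90 to 3.63 normalized units in normals and 1.64 to 2.48 in tumors. Symbols for 775 genes were added from RefSeq by gene identifier.

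The members and lists were chosen with earlier results of these data known. The values are not counts, so limma 3.58.1 (R 4.3.3, eBayes with trend) was fitted to the deposited log2 values, where a linear table had been allowed for. Genes above their shared lowest value in at least 4 samples, or without one, were tested. Calls needed a Benjamini-Hochberg adjusted p of at most 0.05 and 2-fold. Exact permutation tests ran over 40920 arrangements of the samples, and correlations used 100000 permutations. All tests were two-sided. In data simulated on 24471 genes, 83 of 100 genes changed by 3 (log2) and 55 of 100 changed by 1.5 were recovered. Named genes were the members, the 2 largest changes in each direction of each pathway list, and the 3 genes most like each member among those above their lowest value in at least 20 tumors. GDF5, GDF2, NBL1 and HSD11B1 among pathway genes, and PDGFRA and KRT20 among markers, were named after their values were seen. Of 80 pathway genes listed, 48 were found by symbol, which 12977 of 25096 rows carry, and the others were not analysed here. A further listed gene is not reported here.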

Additional observations from a re-analysis of the deposited data

How the results depend on the processing

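GLI1 and GLI3 were called lower under every setting run. With DESeq normalization 0 members, 0 pathway genes and 1377 of all genes were called higher by limma, and 1 member and 4 pathway genes were higher at an unadjusted p of at most 0.05 without the fold threshold. There, among the members and other pathway genes named here, SMO (-0.25), BMP7 (-0.015) and ID3 (-0.17) changed sign without passing any test. Without a fold-change threshold 5 pathway genes and 5603 of all genes were called higher. With samples of the DESeq-normalized values centred on genes above their lowest value, added after seeing the data, SMO was at -0.0037, SHH was called again and HHIP was called lower (adjusted p = 0.0472, limma). Leaving out 1 normal at a time gave 2 to 3 members lower and 0 to 1 higher, 20 to 21 pathway genes lower and 1 to 3 higher, and SMO at -0.038 to 0.13; SHH was lost without normal D. Leaving out 1 tumor at a time, also added later, kept every call of a member, except that HHIP was then called lower without any 1 of 7 tumors (adjusted p 0.0361 to 0.0480) and that SMO ran from -0.006 to 0.17. PTCH1 minus SHH ran from -1.95 to -0.97 without 1 normal. With the fibroblast score regressed out 0 of 36 pairs passed and 14 turned from positive to negative (r -0.26 to -0.0084), among them SHH with GLI1 (-0.024), PTCH1 with GLI1 (-0.22) and GLI1 with BMP4 (-0.25). Without the 3 tumors with the largest olfactory share 3 of 54 marker relations passed, those of GLI1 with the fibroblast and smooth muscle scores and of SHH with the luminal score. The causes were not tested.

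No member has a shared lowest value, so restricting pairs to tumors above it changed nothing. No paired analysis was possible because normals and tumors came from different dogs and share no label that pairs them. The p-values judge differences and correlations against the variation between these samples, most of them tumors. The 4 normals limit every comparison with them.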
